A study of Mus musculus with 2 samples.

Results

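Cells with high expression of the suprabasal keratins *Krt1* and *Krt10* were selected from single-cell libraries of embryonic mouse skin epithelium. A barcode was kept as a cell when it held at least 1800 genes, and it was chosen when UMIs (unique molecular identifiers, each standing for 1 captured RNA molecule) of *Krt1* and *Krt10* together reached 300 per 10000 of its UMIs. This choice on *Krt1* and *Krt10* gave 106 of 3577 kept cKO cells (2.96%, exact binomial 95% interval 2.43 to 3.57) and 188 of 4447 kept Ctrl cells (4.23%, 3.66 to 4.86), 294 of 8024 in all. The cKO embryos were Mettl3 fl/fl, and the Ctrl embryos were Mettl3 fl/+. Both also carried Rosa16-YFP fl/+ and K14Cre, a Cre driven by the *Krt14* promoter of basal keratinocytes, so the Ctrl cells had Cre as well and could lose 1 *Mettl3* copy. Both libraries came from back skin of C57BL/6 embryos at embryonic day 17, were sorted for YFP, and were made with the 10x Genomics 3′ kit. The sort also gated on the basal integrins α6 and β1, and such a gate helps to set how many suprabasal cells a library holds. There was 1 library per condition, so the variation between embryos is unknown, differences between conditions were not tested, and all intervals in the text describe counting error only.

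Epidermis renews from a basal layer that divides and expresses *Krt5* and *Krt14*. Cells that leave this layer come to stop dividing, though in embryonic skin some still divide above it, switch to *Krt1* and *Krt10* in the spinous layers, and later enter the granular layer, where they make loricrin, filaggrin and barrier lipids before they cornify. METTL3 is the catalytic subunit of the complex that writes N6-methyladenosine (m6A) on mRNA.

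Among the markers named for these cells, *Acer1*, *Tgm3* and *Ly6g6c* took no part in the choice. The 100 bases before the RefSeq start site of these genes and of *Krt10* are shown because their transcripts stand out in the chosen cells. Capitals mark TATAAA, the core of a TATA box, read on both strands. On GRCm38.p6 the windows are chr11:99389365-99389464 on the minus strand for *Krt10*, chr17:56982127-56982226 on the minus strand for *Acer1*, chr2:130012240-130012339 on the plus strand for *Tgm3*, and chr17:35067225-35067324 on the plus strand for *Ly6g6c*.
Krt10: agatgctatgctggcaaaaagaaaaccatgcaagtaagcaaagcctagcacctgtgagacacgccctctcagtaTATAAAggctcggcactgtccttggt
Acer1: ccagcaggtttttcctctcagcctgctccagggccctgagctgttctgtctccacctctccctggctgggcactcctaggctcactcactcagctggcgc
Tgm3: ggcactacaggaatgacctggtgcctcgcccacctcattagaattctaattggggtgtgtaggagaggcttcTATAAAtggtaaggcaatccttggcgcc
Ly6g6c: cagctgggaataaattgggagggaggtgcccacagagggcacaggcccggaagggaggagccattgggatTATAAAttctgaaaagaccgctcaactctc

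TATAAA occurred in 1827 of 32851 RefSeq promoter windows of 100 bases (5.56%). Of the 15 genes with the highest fold in the chosen cells over other kept cells, 12 had a window in the table, and 4 of them held the motif, namely *Krt10*, *Ly6g6c*, *Rbp2* and *Tgm3*. Windows with the AP-1 motif TGANTCA, read on both strands, made up 2.73% of all windows, and among the 12 genes only *Serpinb12* held it. Such matches describe the letters of a window and not a bound site.

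The chosen cells were a range cut from a continuous score. Their *Krt1* and *Krt10* sum per 10000 UMIs had a median of 471 in cKO cells and 471 in Ctrl cells, with ranges of 309 to 930 and 304 to 1194, and these values are set in part by the cut. The cells closest below the cut stood at 297 in cKO and 299.7 in Ctrl. Between 270 and 300 there were 14 cKO and 19 Ctrl cells, and between 300 and 330 there were 11 cKO and 15 Ctrl cells. Many cells therefore lay near the border, and the class has no gap around it.

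The targeted gene, *Mettl3*, had 4 UMIs in the chosen cKO cells and 22 UMIs in the chosen Ctrl cells, or 3.21 and 9.17 CPM (UMIs of a gene divided by all UMIs of the group of cells and scaled to 1000000), a ratio of 0.35 (0.09 to 1.03). Its log2 ratio ran from -1.79 to 0.18 over 17 alternative processings, and 16 of them kept it at least 1.5-fold lower in cKO. The tags come from the 3′ end of the transcript, outside the deleted part, so they do not check the deletion. The cells were deep, and their median was 10651 UMIs and 2692 genes in cKO and 11858 UMIs and 2794 genes in Ctrl, against 8517 and 8809 UMIs in the other kept cells. Their summed counts were 1247620 UMIs in cKO and 2400142 UMIs in Ctrl, of 49755010 and 59664869 UMIs in the whole matrices. Mitochondrial genes gave a median of 4.54% of the UMIs of a chosen cKO cell and 3.93% of a chosen Ctrl cell. Cells above the 95th percentile of UMIs made up 12.3% of the chosen cKO cells and 19.7% of the chosen Ctrl cells, and no doublet caller was run. *Xist*, the RNA that coats the inactive X chromosome of females, had 0 UMIs in the chosen cKO cells and 3103 UMIs in the chosen Ctrl cells, so sex and genotype cannot be told apart for any gene.

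The named markers were largely restricted to the chosen cells. *Acer1*, an alkaline ceramidase of the differentiating epidermis, stood at 84.2 CPM in chosen cKO cells and 61.7 CPM in chosen Ctrl cells, against 0.578 and 0.434 CPM in the other kept cells. *Tgm3*, a transglutaminase that crosslinks the cornified envelope, stood at 85.0 CPM in cKO and 55.8 CPM in Ctrl, 93.1 and 55.1 times its level in the other cells. *Ly6g6c*, a Ly6 family gene, stood at 329 CPM in cKO and 234 CPM in Ctrl, 107 and 121 times its level in the other cells. Since the cells were chosen on *Krt1* and *Krt10*, these folds describe the class and were not tested.

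**Figure D1:**
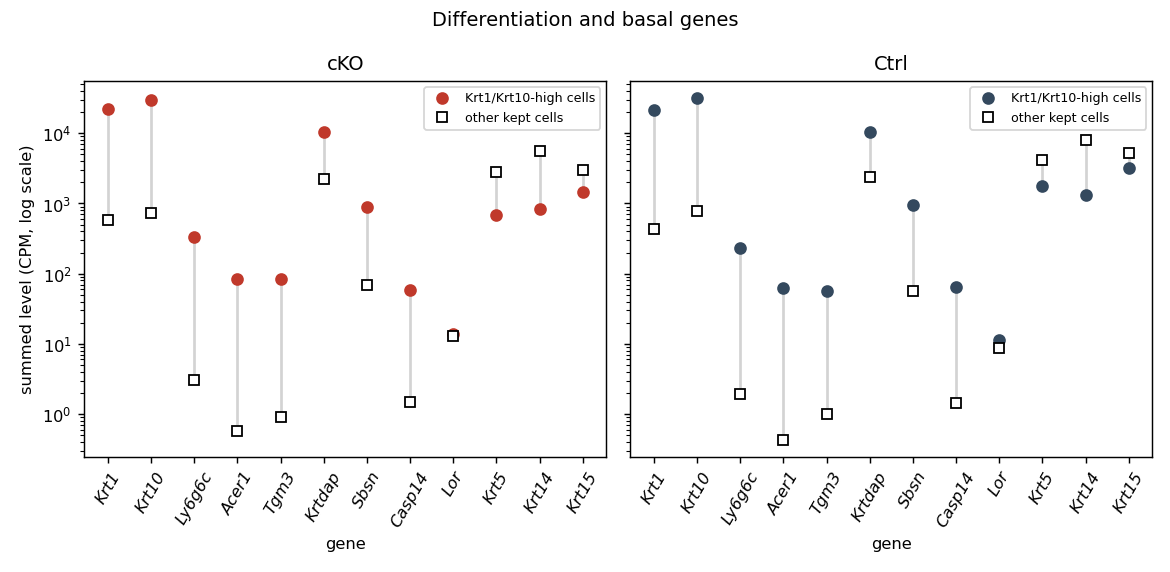
Level of marker genes (CPM, log axis) in the chosen cells (filled circles) and in the other kept cells (open squares) of the cKO library and the Ctrl library, joined by a line for each gene. *Acer1*, *Tgm3* and *Ly6g6c* lie far above the other kept cells in both libraries, while *Lor* lies near them (13.6 against 12.8 CPM in cKO, 11.2 against 8.80 CPM in Ctrl).

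Markers of the granular layer were scarce, so the data do not bear out the word late for these cells, and they are called Krt1/Krt10-high cells here. *Flg* (filaggrin) and *Cdsn* (corneodesmosin) had 0 UMIs in both libraries, where 3 counts would be 2.40 CPM in cKO and 1.25 CPM in Ctrl. *Ivl* (involucrin) had 1 UMI in each library. *Lor* (loricrin) was at 13.6 CPM in cKO and 11.2 CPM in Ctrl, little above the 12.8 and 8.80 CPM of other kept cells and below the 57.7 and 19.2 CPM of nearly empty barcodes, which hold free RNA. *Casp14*, a protease of terminal differentiation, was present at 57.7 CPM in cKO and 65.0 CPM in Ctrl, against 1.49 and 1.45 CPM in other cells. Of 50 cornified envelope and granular genes, 25 had no UMI in either library and 9 reached 100 UMIs over both, the minimum for a gene to be called measured. These 9 were at least 1.5-fold above the other kept cells in both libraries, but the minimum of UMIs favours genes that are high in these cells. Of all 3652 measured genes, 678 in cKO and 689 in Ctrl lay that far above. Cells below the cut were raised as well. The list of 50 summed to 2353 CPM in cKO and 2130 CPM in Ctrl at a *Krt1* and *Krt10* score of 100 to 300. In chosen cells of 300 to 450 it summed to 3104 and 3167 CPM.

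The genes that stood out most over other kept cells in both libraries included enzymes and transporters beside the keratins. *Tmem45a*, a transmembrane protein gene of keratinocytes, was at 471 CPM in cKO and 380 CPM in Ctrl, against 10.95 and 7.93 CPM in other cells. *Serpinb12*, a serine protease inhibitor gene, was at 327 CPM in cKO and 357 CPM in Ctrl. *Rbp2*, which encodes a retinol binding protein, was at 106 CPM in cKO and 143 CPM in Ctrl. The other genes of this group were the glutathione transferases *Gsta1* and *Gsta2*, whose near-identical transcripts may share reads, the cystine transporter gene *Slc7a11*, the threonine dehydrogenase gene *Tdh*, *Oas1f* and *Gm94*. At the other end stood genes of the basal layer and the hair follicle, among them *Lhx2*, *Tgfb2*, *Fst*, *Pthlh*, *Ncam1* and the chemokine gene *Cxcl14*, which was at 64.1 CPM in cKO and 102 CPM in Ctrl against 1149 and 1814 CPM in other cells.

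Markers of other cell types were low in the Krt1/Krt10-high cells. The 7 immune markers summed to 0 CPM in cKO and 0.417 CPM in Ctrl, with *Ptprc* and *Cd207* among those at 0. The 5 endothelial markers summed to 3.21 CPM in cKO and 4.17 CPM in Ctrl, and the 8 melanocyte and neural crest markers to 1.60 and 2.5 CPM. The 8 Merkel cell markers summed to 5.61 CPM in cKO and 2.92 CPM in Ctrl, against 38.0 and 41.0 CPM in other kept cells. Fibroblast markers, mostly *Dcn*, summed to 45.7 CPM in cKO and 49.2 CPM in Ctrl, against 671 and 781 CPM in other cells. The 19 hair follicle markers summed to 186 CPM in cKO and 280 CPM in Ctrl, against 2348 and 2483 CPM, with *Krt17* the most abundant of them in Ctrl.

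Across the cells, levels were ordered by the *Krt1* and *Krt10* score. Cells of 300 to 450, 450 to 600 and over 600 per 10000 UMIs numbered 44, 36 and 26 in cKO and 84, 55 and 49 in Ctrl. In these bands *Acer1* stood at 27.1, 66.5 and 173 CPM in cKO and at 20.4, 34.3 and 144 CPM in Ctrl. *Ly6g6c* stood at 197, 243 and 587 CPM in cKO and at 92.1, 134 and 523 CPM in Ctrl. Both genes were thus highest in the cells with most *Krt1* and *Krt10*. *Krtdap*, a secreted protein gene of differentiating keratinocytes, was more even, at 9289, 10198 and 12187 CPM in cKO and 8889, 10539 and 12678 CPM in Ctrl. The basal keratin gene *Krt5* ran the other way, at 1049, 720 and 208 CPM in cKO and 2823, 1381 and 549 CPM in Ctrl, and was lower in cKO than in Ctrl within each band.

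**Figure D2:**
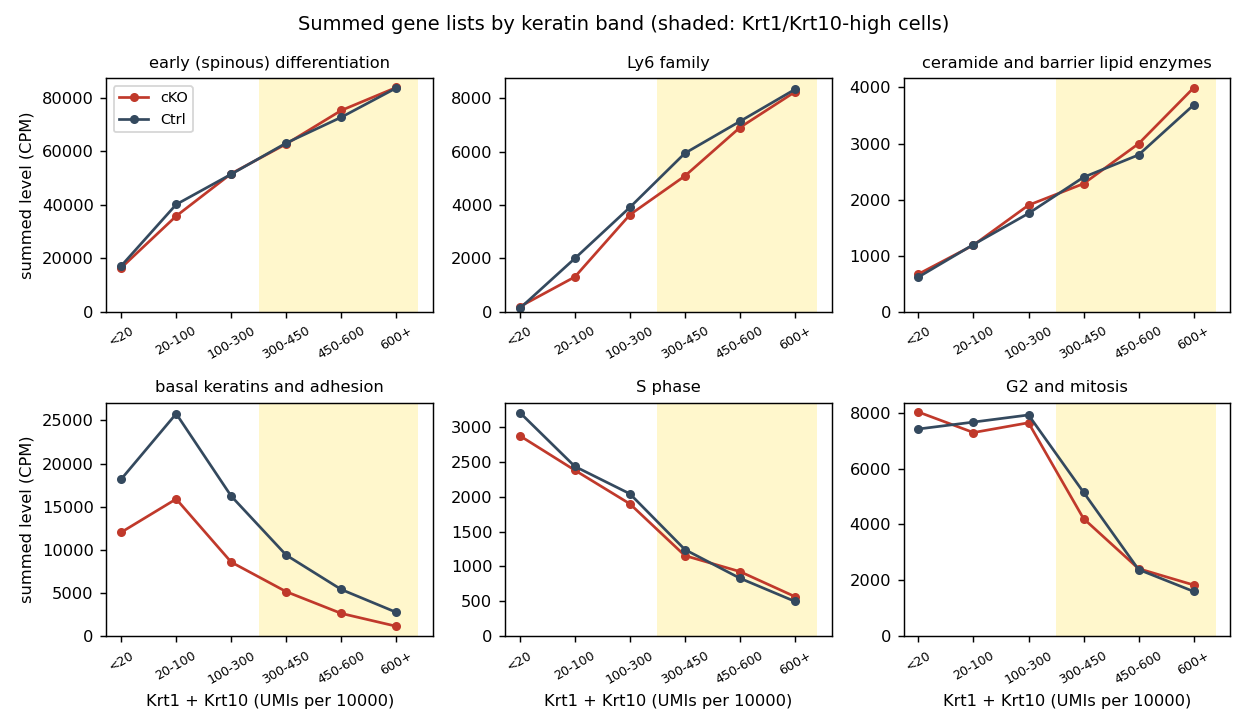
Summed level of 6 gene lists (CPM, linear axes) in cells grouped by their *Krt1* and *Krt10* sum per 10000 UMIs, from under 20 to 600 and over, for the cKO and Ctrl libraries. Within the shaded bands, which are the chosen cells, the spinous, Ly6 and lipid lists lie higher where *Krt1* and *Krt10* are higher. The basal and cell cycle lists lie lower there. For the basal list, whose sum in the chosen cells is mostly *Krt5*, *Krt14* and *Krt15*, cKO lies below Ctrl.

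Between cKO and Ctrl, 3652 genes were measured in the Krt1/Krt10-high cells. A gene was called when its level differed at least 1.5-fold, and 257 genes (7.04%) were higher and 167 (4.57%) were lower in cKO. The median gene differed by a log2 ratio of -0.03. Of the 257 higher genes, 237 (92.2%) also lay above 1 in basal-keratin cells and 119 (46.3%) were past 1.5-fold there. Of the 167 lower genes, 138 (82.6%) lay below 1 and 18 (10.8%) were past 1.5-fold there. The basal-keratin cells were 1013 cKO and 2296 Ctrl cells with a *Krt1* and *Krt10* sum under 20 and a *Krt5* and *Krt14* sum of at least 100 per 10000 UMIs, so their own *Krt5* and *Krt14* levels are bounded by that choice.

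Basal keratin transcripts were lower in the Krt1/Krt10-high cKO cells. *Krt5* (ENSMUSG00000061527, chr15:101707070-101712898, GRCm38), the type II keratin of the basal layer, had 855 UMIs in cKO and 4197 UMIs in Ctrl, or 685 CPM and 1749 CPM. Its ratio was 0.39 (95% interval 0.36 to 0.42), against 0.66 in the other kept cells, and the log2 ratios differed by -0.75 (-0.86 to -0.64). *Krt15* (ENSMUSG00000054146, chr11:100131758-100135928), a type I keratin of basal and hair follicle cells, was at 1453 CPM in cKO and 3151 CPM in Ctrl, a ratio of 0.46 (0.44 to 0.49) against 0.57 in the other kept cells. *Krt14*, the partner of *Krt5*, was at 846 CPM in cKO and 1320 CPM in Ctrl, a ratio of 0.64 (0.60 to 0.69) against 0.68. The log2 ratios differed from those of the other kept cells by -0.30 (-0.38 to -0.23) for *Krt15* and by -0.08 (-0.18 to 0.02) for *Krt14*. Against the other cells as a whole, *Krt5* and *Krt15* thus lay further below Ctrl, beyond counting error, and *Krt14* did not. Those cells are a mix, with 1013 basal-keratin cells of 3471 in cKO and 2296 of 4259 in Ctrl. Their ratios hold differences in make-up as well as in level, and the part of each was not tested. Basal-keratin cells were chosen on *Krt5* and *Krt14*, and their ratios for these 2 genes are not used for the comparison. *Krt15*, which was not part of that choice, had a ratio of 0.64 in them. When equal shares of cells were taken by rank of *Krt1* and *Krt10* in each library, in place of the fixed threshold, *Krt14* had a log2 ratio of 0.054 and its call was lost, while *Krt5* and *Krt15* stayed past the fold.

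*Krt17*, a keratin of hair follicles and appendages, had 101 UMIs in cKO and 519 UMIs in Ctrl, or 81.0 CPM and 216 CPM, with a ratio of 0.37 (0.30 to 0.46) against 0.87 in the other kept cells. *Krt14*, *Krt16* and *Krt17* are close relatives whose reads the counting may not fully separate. Of 15 genes of basal keratins and adhesion, 3 were measured (*Krt5*, *Krt14* and *Krt15*), and all 3 fell at least 1.5-fold, against 4.57% of all measured genes. Integrin and hemidesmosome genes of the list stayed under 100 UMIs, such as *Col17a1* with 24 UMIs in cKO and 33 UMIs in Ctrl and *Itga6* with 18 and 28 UMIs. All UMIs of the chosen cells were 1247620 in cKO and 2400142 in Ctrl, so these counts alone give no direction. In bands of 300 to 450, 450 to 600 and over 600, *Col17a1* stood at 31.6, 13.8 and 10.8 CPM in cKO. In Ctrl it stood at 21.3, 6.23 and 9.63 CPM. *Itga6* stood at 31.6, 4.59 and 5.41 CPM in cKO and at 14.5, 12.5 and 6.88 CPM in Ctrl. These levels rest on few UMIs. The 15 genes summed to 3097 CPM in cKO and 6324 CPM in Ctrl, against 12047 and 18376 CPM in the other kept cells. Nearly all of the sum in the chosen cells came from *Krt5*, *Krt14* and *Krt15*. They stood at 685, 846 and 1453 CPM in cKO and at 1749, 1320 and 3151 CPM in Ctrl. The sum thus describes these keratins and not the adhesion genes.

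The difference was also seen in the median cell. *Krt5* and *Krt14* together had a median of 6.32 per 10000 UMIs in cKO cells (lowest 0.824, highest 154) and 18.6 in Ctrl cells (lowest 0.601, highest 256). The ranges overlapped widely, and the middle of the cKO cells lay below that of the Ctrl cells. Cells under 10 per 10000 UMIs numbered 66 of 106 in cKO (62.3%, 52.3 to 71.5) and 55 of 188 in Ctrl (29.3%, 22.9 to 36.3). Under 5 there were 41 cKO cells (38.7%, 29.4 to 48.6) and 21 Ctrl cells (11.2%, 7.05 to 16.6). At or above 100, the level that defines basal-keratin cells, there were 3 cKO and 11 Ctrl cells. Among the other kept cells the median of this sum was 68.9 in cKO and 115 in Ctrl, so cKO cells outside the class also lay lower. Free RNA held these transcripts too, with *Krt5* at 2849 CPM in cKO and 3933 CPM in Ctrl, *Krt14* at 5815 and 8221 CPM, and *Krt15* at 2673 and 4685 CPM in nearly empty barcodes, above the levels in the chosen cells and also lower in cKO. Subtraction of free RNA at 5% of each sum gave log2 ratios of -1.52 for *Krt5*, -0.71 for *Krt14* and -1.14 for *Krt15*. How much of the counts in the chosen cells came from free RNA was not tested.

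**Figure D3:**
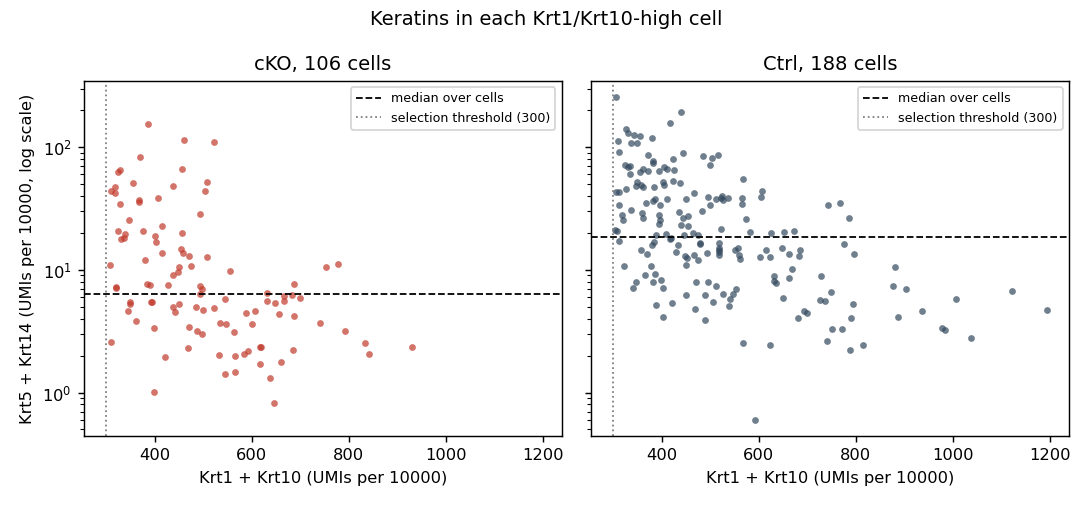
Each point is a Krt1/Krt10-high cell of the cKO or Ctrl library, placed by its *Krt1* and *Krt10* sum and by its *Krt5* and *Krt14* sum, both per 10000 UMIs, the second on a log axis. The cKO cells (median 6.32, dashed line) lie lower in basal keratins than the Ctrl cells (median 18.6), and the 2 clouds overlap.

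Genes of the spinous program differed little. Of 20 genes, 18 were measured, and 17 of them were at least 1.5-fold above other kept cells in both libraries. Of all 3652 measured genes, 678 in cKO and 689 in Ctrl lay that far above, and the minimum of UMIs favours such genes. The height of the spinous list was largely shared with cells below the cut. The list summed to 51689 CPM in cKO and 51480 CPM in Ctrl at a *Krt1* and *Krt10* score of 100 to 300. In chosen cells of 300 to 450 it summed to 62807 and 63152 CPM. Between the libraries, 1 gene rose (*Mt4*) and 0 fell at least 1.5-fold in cKO, with a median log2 ratio of -0.09. *Krtdap* was at 10465 CPM in cKO and 10478 CPM in Ctrl, and *Dmkn* (dermokine) at 5420 and 5447 CPM. *Sbsn* (suprabasin) was at 906 CPM in cKO and 939 CPM in Ctrl. These 3 secreted products of differentiating keratinocytes stood at nearly equal levels, with ratios of 0.96 to 0.999. *Lgals7* (galectin-7) was at 23675 CPM in cKO and 19607 CPM in Ctrl, and *Fabp5*, a fatty acid binding protein gene, at 14173 and 16018 CPM. *Ly6d* was at 5652 CPM in cKO and 6202 CPM in Ctrl, a ratio of 0.91 against 1.495 in basal-keratin cells, and its log2 difference between the classes was -0.71 (-0.83 to -0.59).

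*Mt4*, a metallothionein gene of stratified squamous epithelium, had 103 UMIs in cKO and 9 UMIs in Ctrl, and 66 of the 103 lay in a single cKO cell. Without the cell of each library with most *Mt4*, 37 UMIs in cKO and 6 UMIs in Ctrl remained, too few to count as measured, a ratio of 11.99 (5.02 to 34.8). A UMI was found in 11 cKO and 5 Ctrl cells. *Krt79* of the sebaceous and hair canal lineage had 61 UMIs in cKO, 58 of them in 1 cell, and 22 UMIs in Ctrl. *Krt16*, a keratin of stressed epidermis, rose to 82.6 CPM in cKO, against 54.6 CPM in Ctrl, and 47 of its 131 Ctrl UMIs lay in 1 cell. The *Krt79* count in cKO thus describes 1 cell.

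Transglutaminases were higher in cKO, while the other named markers did not pass the fold. *Tgm3* had 106 UMIs in cKO and 134 UMIs in Ctrl, a ratio of 1.52 (1.17 to 1.98), and passed the fold in 10 of 17 alternative processings. *Tgm1*, the transglutaminase of the keratinocyte membrane, had 51 UMIs in cKO and 50 UMIs in Ctrl, a ratio of 1.96 (1.30 to 2.96), and these were the 2 measured transglutaminases of 6, against 7.04% of all measured genes called higher. *Acer1* had a ratio of 1.36 (1.05 to 1.76) and *Ly6g6c* of 1.41 (1.23 to 1.60), both under the fold used for a call. With equal shares of cells by rank of *Krt1* and *Krt10*, their log2 ratios were -0.01 for *Acer1* and 0.10 for *Ly6g6c*. *Tgm3* stood at 47.5, 71.1 and 146 CPM in cKO and 17.5, 23.4 and 139 CPM in Ctrl in the 3 bands, so the libraries were close in the highest band (ratio 1.05, 0.742 to 1.48). *Casp14* had 36.2, 55.1 and 86.6 CPM in cKO and 35.9, 56.1 and 114 CPM in Ctrl.

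When each cell was thinned to 5500 UMIs, *Acer1* had a UMI in 28.2% of 103 cKO cells (19.7 to 37.9) and 18.1% of 188 Ctrl cells (12.9 to 24.3). For *Ly6g6c* the shares were 53.4% in cKO (43.3 to 63.3) and 42.0% in Ctrl (34.9 to 49.4), and for *Tgm3* 29.1% in cKO (20.6 to 38.9) and 20.7% in Ctrl (15.2 to 27.2). The intervals of the libraries overlapped for each gene. Thinning left out 3 cKO cells and 0 Ctrl cells with fewer UMIs. Without thinning the shares were 42.5% in cKO and 30.3% in Ctrl for *Acer1*, 49.1% and 31.4% for *Tgm3*, and 68.9% and 53.7% for *Ly6g6c*. In basal-keratin cells, which should lack the gene and had a median of 9358 UMIs in cKO and 9245 UMIs in Ctrl, the thinned share for *Acer1* was 0.101% in cKO and 0.133% in Ctrl, far below the shares in the chosen cells.

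Of 42 ceramide and barrier lipid genes, 15 were measured, 4 rose and 0 fell in cKO, against 7.04% and 4.57% of all measured genes, and the median log2 ratio was 0.35 in these cells and 0.22 in basal-keratin cells. With equal shares of cells by rank of *Krt1* and *Krt10* the median was 0.02. *Elovl7*, a fatty acid elongase gene, had 135 UMIs in cKO and 139 UMIs in Ctrl, a ratio of 1.87 (1.46 to 2.38). *Lipm*, an epidermal lipase gene, had 62 UMIs in cKO and 59 UMIs in Ctrl, a ratio of 2.02 (1.39 to 2.94). *Sptlc2*, a subunit of the enzyme that starts sphingolipid synthesis, and *Ephx3*, an epoxide hydrolase gene, were the other 2, at ratios of 1.55 and 1.65. The abundant members did not follow. *Gltp*, a glycolipid transfer protein gene, was at 1237 CPM in cKO and 1433 CPM in Ctrl, and *Elovl4*, the elongase of very long chain fatty acids, at 366 and 355 CPM, so the sum over the list differed by 1.05-fold.

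Among 9 measured cornified envelope genes, 1 rose and 0 fell, against 7.04% and 4.57% of all measured genes. *Cysrt1*, a cysteine-rich tail protein gene, had 112 UMIs in cKO and 108 UMIs in Ctrl, a ratio of 1.995 (1.52 to 2.62). *Calm4*, a calmodulin-like gene of the epidermis, was at 1875 CPM in cKO and 1392 CPM in Ctrl, and *Hspb1*, a small heat shock protein gene, at 1787 and 2122 CPM, a difference in the opposite direction and also under 1.5-fold. Of 11 measured junction genes, 2 rose and 0 fell, against the same shares. *Gjb5*, a connexin gene of the differentiating epidermis, had 73 UMIs in cKO and 53 UMIs in Ctrl, a ratio of 2.65 (1.83 to 3.85). *Gjb5* lay higher in cKO in each band, at 38.4, 39.0 and 106 CPM against 14.5, 7.79 and 45.4 CPM in Ctrl.

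Of 24 measured transcription factor genes of the differentiation list, 1 rose (*Id1*, ratio 1.57) and 0 fell, against 7.04% and 4.57% of all measured genes. Their median log2 ratio was 0.07. *Klf4*, a barrier regulator, was at 341 CPM in cKO and 391 CPM in Ctrl. *Grhl3*, another regulator of the barrier, was at 48.1 CPM in cKO and 48.3 CPM in Ctrl. Notch pathway genes (7 measured), desmosome genes (9), proteases and inhibitors (17), S100 genes (4), calcium handling genes (11), Ly6 family genes (4) and organelle loss genes (12) had 0 calls in either direction. At the shares of all measured genes, lists this short would hold few calls. The 9 desmosome genes were all at least 1.5-fold above the other kept cells in each library. That held for 678 of all 3652 measured genes in cKO and 689 in Ctrl, and the minimum of UMIs favours such genes. *Dsg1a* was at 374 CPM in cKO and 265 CPM in Ctrl, and *Jup* (plakoglobin) at 531 and 730 CPM. Cells below the cut shared much of this height. The desmosome list summed to 5431 CPM in cKO and 5925 CPM in Ctrl at a *Krt1* and *Krt10* score of 100 to 300. In chosen cells of 300 to 450 it summed to 6126 and 6790 CPM. Among 15 measured AP-1 and immediate early genes, 2 rose and 0 fell, against the same shares. These were *Hspa1a* and *Hspa1b*, near-identical heat shock genes, at ratios of 1.501 and 1.61.

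**Figure D4:**
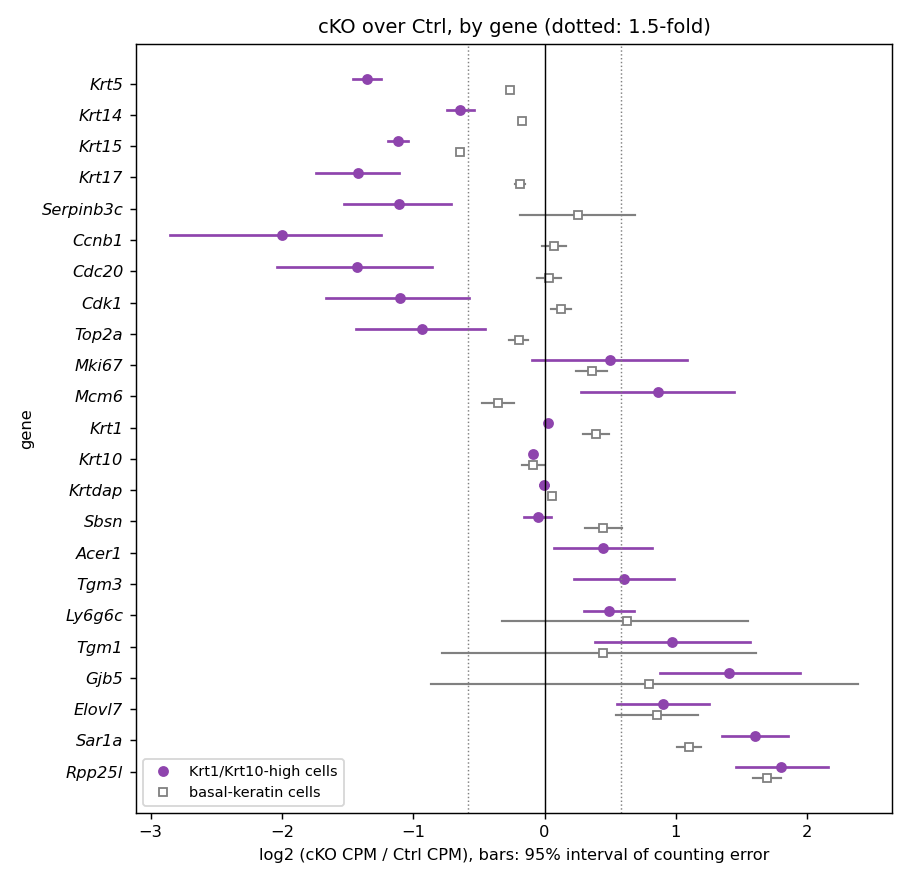
Ratio of cKO to Ctrl (log2) for named genes in Krt1/Krt10-high cells and in basal-keratin cells, with 95% intervals for counting error and dotted lines at 1.5-fold (basal-keratin values of *Acer1* and *Tgm3*, which had few UMIs there, are not drawn). *Krt17* (ratio 0.37 against 0.88) lies apart between the classes, the basal-keratin values of *Krt5* and *Krt14* are bounded by the choice of those cells, and *Rpp25l* (3.49 against 3.23) lies at about the same place in both.

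Transcripts of division were low in the Krt1/Krt10-high cells of both libraries. All 11 measured S phase genes were at least 1.5-fold below other kept cells in both. Of all 3652 measured genes, 542 in cKO and 475 in Ctrl lay that far below. The S phase list summed to 902 CPM in cKO and 907 CPM in Ctrl, against 2807 and 3130 CPM elsewhere. Only *Mcm6* of the 11 was called between the conditions, against 7.04% higher and 4.57% lower of all measured genes. It had 51 UMIs in cKO and 54 UMIs in Ctrl, a ratio of 1.82. Of 24 measured G2 and mitosis genes, 21 lay at least 1.5-fold below other kept cells in both libraries, against the same 542 and 475 genes. In cKO 0 of the 24 rose and 8 fell, against 7.04% and 4.57% of all measured genes, and the median log2 ratio was -0.36 in these cells and 0.09 in basal-keratin cells. *Ccnb1* (cyclin B1) had 16 UMIs in cKO and 123 UMIs in Ctrl, a ratio of 0.25 (0.14 to 0.42) against 1.05 in basal-keratin cells. *Cdk1*, its kinase partner, had 37 UMIs in cKO and 153 UMIs in Ctrl, a ratio of 0.47 (0.32 to 0.67). *Top2a*, a topoisomerase gene of dividing cells, had 46 UMIs in cKO and 169 UMIs in Ctrl, a ratio of 0.52 (0.37 to 0.73), and *Cdc20*, an activator of mitotic exit, had 30 and 155 UMIs, a ratio of 0.37 (0.24 to 0.55).

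The calls depended on the choice of cells, since the median log2 ratio of the list was 0.26 when equal shares of cells were taken by rank of *Krt1* and *Krt10*. *Mki67*, the proliferation marker, did not follow, with 44 UMIs in cKO and 60 UMIs in Ctrl, a ratio of 1.41 (0.93 to 2.12). Of the *Ccnb1* UMIs, 50% lay in 4 cKO and 6 Ctrl cells. The G2 and mitosis list had a median of 17.6 per 10000 UMIs in cKO cells (4.99 to 160) and 16.04 in Ctrl cells (4.86 to 181), so the median cells of the libraries stood close together. Cells above 37.6 per 10000 UMIs, the median of basal-keratin Ctrl cells, numbered 21 of 106 in cKO (19.8%, 12.7 to 28.7) and 38 of 188 in Ctrl (20.2%, 14.7 to 26.7). Above 51.6, the median of basal-keratin cKO cells, there were 15 cKO cells (14.2%, 8.14 to 22.3) and 29 Ctrl cells (15.4%, 10.6 to 21.4). At either level the libraries held similar shares of such cells. After thinning, 8.74% of cKO cells (4.07 to 15.9) and 17.6% of Ctrl cells (12.4 to 23.8) held a UMI of *Top2a*. *Cdk1* was found in 12.6% of cKO cells (6.89 to 20.6) and 14.9% of Ctrl cells (10.1 to 20.8). *Mki67* was found in 16.5% of cKO cells (9.92 to 25.1) and 9.04% of Ctrl cells (5.36 to 14.1). The intervals of the libraries overlapped for each of these genes. In thinned basal-keratin cells the shares were 46.3% in cKO and 43.9% in Ctrl for *Top2a* and 29.0% and 24.6% for *Mki67*.

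**Figure D5:**
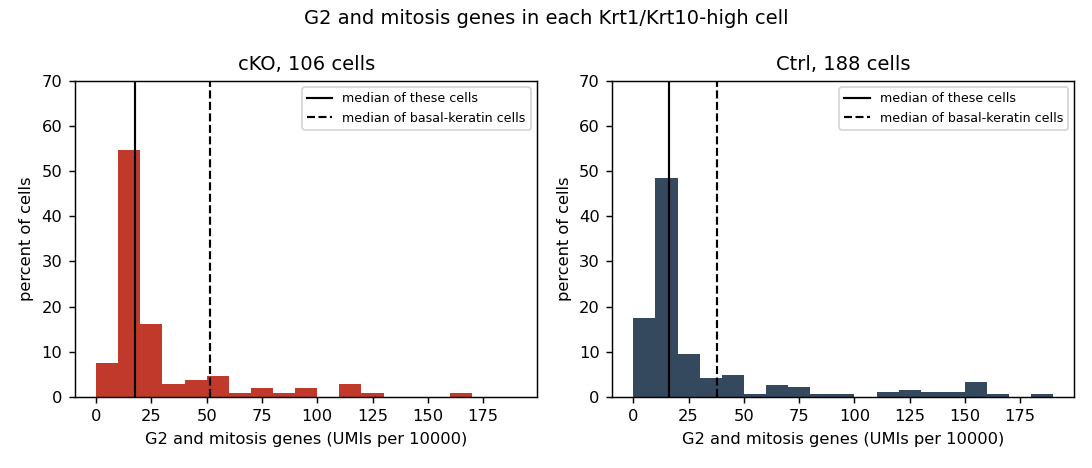
Percent of the Krt1/Krt10-high cells of the cKO and Ctrl libraries, by the summed level of the G2 and mitosis list in a cell (UMIs per 10000). Most cells of both libraries lie near the medians of 17.6 in cKO and 16.04 in Ctrl, and a tail of cells reaches 160 in cKO and 181 in Ctrl.

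Of 5 measured cell cycle arrest genes, 0 rose and 1 fell, against 7.04% and 4.57% of all measured genes. *Cdkn1c*, which encodes the inhibitor p57, was at 48.9 CPM in cKO and 80.4 CPM in Ctrl, a ratio of 0.61 against 0.51 in basal-keratin cells. *Cdkn1a*, which encodes p21, was at 244 CPM in cKO and 242 CPM in Ctrl, well above the 44.4 and 33.6 CPM of other kept cells. Cells below the cut, with a *Krt1* and *Krt10* score of 100 to 300, already held 196 CPM in cKO and 174 CPM in Ctrl. The high level of *Cdkn1a* was thus not particular to the chosen cells.

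Of 20 m6A writer, reader and eraser genes, 11 were measured, 4 rose and 0 fell, against 7.04% and 4.57% of all measured genes. *Wtap*, a subunit of the writer complex, had 125 UMIs in cKO and 100 UMIs in Ctrl, a ratio of 2.40 (1.83 to 3.16) against 1.32 in basal-keratin cells, a log2 difference of 0.87 (0.47 to 1.27). The readers *Ythdf2*, *Ythdc1* and *Igf2bp2* had ratios of 1.74, 1.54 and 1.64. *Ythdf2* stood at 1.74 in basal-keratin cells as well.

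Of the genes that reached 200 UMIs in the libraries together, the 10 with the highest ratios were on none of the differentiation lists, and they were at least 1.5-fold higher in basal-keratin cells too. *Rpp25l* (ENSMUSG00000036114, chr4:41712033-41713534), related to a subunit of RNase P and RNase MRP, was at 155 CPM in cKO and 44.6 CPM in Ctrl, a ratio of 3.49 (2.74 to 4.46) against 3.23 in basal-keratin cells. *Sar1a*, a GTPase gene of vesicle export from the endoplasmic reticulum, was at 269 CPM in cKO and 88.7 CPM in Ctrl, a ratio of 3.03 against 2.15. *Nxt1*, an mRNA export factor gene, was at 246 CPM in cKO and 84.2 CPM in Ctrl, a ratio of 2.92 against 2.88. The other 7 of the highest 10 were *Lsm10*, *Mrps34*, *Mrpl43*, *Mrpl46*, *Rab9*, *Ccdc59* and *Pop7*, with ratios of 2.43 to 2.70. They take in 3 genes of mitochondrial ribosomal proteins and 2 of RNA processing factors. *Gm94*, which was read from few cells (4 cKO and 5 Ctrl cells held 50% of its UMIs), was at 97.8 CPM in cKO and 30.8 CPM in Ctrl.

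At the low end, beside *Xist*, the keratins and the division genes *Cdca8* and *Top2a*, stood *Hist1h1c*, *Serpinb3c*, *Erdr1* and *Kif21a*. *Hist1h1c*, a linker histone gene, had 27 UMIs in cKO and 201 UMIs in Ctrl, a ratio of 0.26 (0.17 to 0.39) against 0.30 in basal-keratin cells. *Serpinb3c*, a protease inhibitor gene with near-identical neighbours, was at 52.1 CPM in cKO and 112 CPM in Ctrl, a ratio of 0.46 against 1.19 in basal-keratin cells, a log2 difference of -1.36 (-1.94 to -0.79). *Erdr1* lies in a region shared by the sex chromosomes. In the other direction *Penk*, the proenkephalin gene, was at 88.2 CPM in cKO and 43.3 CPM in Ctrl, a ratio of 2.03 against 0.83 in basal-keratin cells, and *Cst6*, a cystatin gene of the cornification pathway, at 229 and 199 CPM, a ratio of 1.15 against 0.54.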

How the data were processed

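The authors deposited raw counts of UMIs per gene and barcode for 1 cKO and 1 Ctrl library, before any filter on cells. The deposited gene and barcode names (other columns) served as labels. The authors used Cell Ranger on mm10, version 2.0 in the submitters' notes and a later one in the study's methods, and the annotation release was not given in the sources used here. All 27998 genes entered the totals.

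Following the study's methods, a barcode needed 1800 genes to be kept. Of the kept barcodes, 16 occurred in both libraries, and 0 of them among the chosen cells. Counts were summed over cells and scaled to CPM, with exact Poisson intervals, and ratios carry exact conditional binomial intervals, at the 95% level. Clopper-Pearson (exact binomial) intervals go with shares of cells. A gene was measured when both libraries together held 100 UMIs of it, and a fold of 1.5 made a call. UMIs amplified from 1 library are not independent cells or embryos, and intervals and floors cover counting error only. A group at 0 was given a floor of 3 counts. Ratios and intervals were run on simulated Poisson counts, the model they assume, with no added variation between cells. This checks the calculation and not the fit of that model to these cells. Barcodes of 10 to 100 UMIs stood for free RNA. Gene positions came from GENCODE vM21 on GRCm38 and matched 27645 genes, and promoters came from RefSeq on GRCm38.p6.

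The chosen cells, markers and gene lists were picked with earlier results of these data known. Genes named are the markers, *Mettl3*, the extremes of the cKO to Ctrl ratio (10 at each end, from 200 UMIs up), the 15 highest and 10 lowest folds over other kept cells, the most abundant and the extreme genes of each list, *Krt5*, *Krt14*, *Mki67*, *Top2a* and *Cdk1*. Other genes were named after their values were seen. The study's methods tested cells as replicates, which was not done here. Alternatives changed the cell filter, the cut, the UMI minimum, the scaling (edgeR 4.0.16 TMM in R 4.3.3 among them) and the cells left out. Python 3.11.15, numpy 2.4.6, scipy 1.17.1, pandas 2.3.3 and matplotlib 3.10.9 were used. A few genes are not reported here.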

Additional observations from a re-analysis of the deposited data

Results flagged for a closer look

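Barcodes with 1000 or more but fewer than 1800 genes lie outside the cells analysed here, and some of them also reached 300 per 10000 UMIs of *Krt1* and *Krt10*. They numbered 34 of 1944 in cKO (1.75%, 1.21 to 2.44) and 43 of 1769 in Ctrl (2.43%, 1.76 to 3.26). They were shallow, with a median of 3963 UMIs in cKO and 4377 UMIs in Ctrl, and mitochondrial genes gave a median of 10.8% and 9.64% of their UMIs. *Krt5* was at 702 CPM in these cKO barcodes and 1881 CPM in these Ctrl barcodes, *Krt14* at 731 and 1592 CPM, and *Krt15* at 1911 and 2863 CPM. Their sum of *Krt5* and *Krt14* had a median of 8.28 per 10000 UMIs in cKO and 22.6 in Ctrl. They thus carried basal keratin levels close to those of the cells with more genes and lay in the same order, and they were not used in the choice or in any sum. *Acer1* stood at 7.24 CPM in cKO and 36.8 CPM in Ctrl there (1 and 7 UMIs), and *Tgm3* at 29.0 and 63.0 CPM (4 and 12 UMIs), opposite to the order in the cells with more genes. *Ly6g6c* stood at 217 CPM in cKO and 105 CPM in Ctrl (30 and 20 UMIs).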

How the results depend on the processing

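Under 17 alternatives each, the log2 ratio of cKO to Ctrl kept its sign and a difference of at least 1.5-fold for *Krt5* (-1.59 to -0.82), *Krt15* (-1.39 to -0.88), *Krt17* (-2.23 to -0.78), *Tgm1* (0.72 to 1.28) and *Gjb5* (0.93 to 1.61). *Tgm3* (0.17 to 1.12) passed the fold in 10 of 17. The log2 ratio of *Krt14* was 0.054 when equal shares of cells were taken by rank of *Krt1* and *Krt10*, and that of *Cdk1* was 0.33 in cells without a UMI of *Mki67* or *Top2a*. Without cells above the basal-keratin median of the G2 and mitosis list, chosen after seeing the data, it was 0.082 for *Top2a*, 0.42 for *Cdk1*, 0.30 for *Ccnb1* and 0.42 for *Cdc20*, but these genes are on the list used to remove the cells, and the level for removal was higher in cKO (51.6) than in Ctrl (37.6), so these values say nothing of a direction. The cause of the other changes was not tested. By rank, *Acer1* was at -0.01 and *Ly6g6c* at 0.10.

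The share of kept cells was 3.69% in cKO and 5.72% in Ctrl with at least 2500 genes per barcode, 4.33% and 5.71% with a cut of 200 per 10000 UMIs, and 1.73% and 2.34% with a cut of 450. It was 3.57% in Ctrl without the cells over the 95th percentile of UMIs. Against 257 higher (7.04%) and 167 lower genes (4.57%), 106 of 2388 were lower with the cut of 450 (4.44%). Without the cells over the 95th percentile, 106 of 2863 were lower (3.70%). In cells without a UMI of *Mki67* or *Top2a*, 170 of 2598 were higher (6.54%). In each of these, the number of genes measured was smaller, and so was the share called in the direction given. With the cut of 450 the share of higher genes was larger, at 178 of 2388 (7.45%). With a minimum of 20 UMIs, 953 genes were higher (11.9%) and 791 lower (9.91%) of 7982. A minimum of 50 UMIs gave 483 (8.65%) and 390 (6.98%) of 5585, and 200 UMIs gave 125 (5.92%) and 72 (3.41%) of 2111. No minimum gave 2807 (21.8%) and 2704 (21.0%) of 12881. The shares called were thus larger where genes with fewer UMIs entered.

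No paired analysis was possible because each condition had 1 library, and there was no replicate to leave out. Depth limits genes under 100 UMIs, and 9 of the 50 cornified envelope and granular genes reached that level. Whether depth kept the others below it was not tested.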
